A study of Homo sapiens with 4 samples.

Results

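The genes described here encode the enzymes and remodelling proteins that write, erase or move the marks of chromatin. They were chosen by symbol, as every gene of the RNA-seq annotation whose name begins with KDM, HDAC, KAT, SMARC, ARID, SETD, CHD, EZH, DNMT or TET followed by the letter or number of a family member. The choice took in 88 of 23287 genes, with 187 of 41138 transcripts, and it used no expression value. T47D, an established line of human breast carcinoma cells with a high level of the progesterone receptor (PR), was kept in charcoal-stripped serum and treated with the synthetic progestin R5020 at 10 nM for 3 h or with its vehicle, ethanol (EtOH), for 3 h before RNA-seq. ChIP-seq of PR was made from the same line after 10 nM R5020 for 1 h. There was 1 library of 1 cell line in each condition. The differences therefore lack any replicate and are given without p-values.

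Chromatin regulators act on the nucleosome, the unit of DNA wrapped around histones. Acetyltransferases (KAT) add acetyl groups to histone lysines, which loosens chromatin, and deacetylases (HDAC) remove them. Methyltransferases (SETD, EZH) and demethylases (KDM) set and erase lysine methylation, which marks active or silent genes depending on the residue. Most SMARC and CHD proteins and some ARID proteins belong to machines that slide or evict nucleosomes with the energy of ATP. DNMT enzymes methylate DNA and TET enzymes oxidise that mark. Steroid receptors such as PR bind DNA after their hormone enters the cell and recruit several of these proteins as coactivators or corepressors. The values below describe the transcripts of the chromatin proteins themselves.

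The level of a gene was the sum of the FPKM values of its transcripts, that is fragments scaled to transcript length and library size. A gene was retained when this sum was at least 1 in at least 1 condition, and its change was the log2 ratio of R5020 over EtOH after adding 1 FPKM to both, a scale that understates the change of low genes. Genes past 1.5-fold on that scale, a log2 change of 0.58, are called higher or lower in R5020. The coverage of the retained transcripts of these genes had a median of 17.5 in EtOH and 17.1 in R5020, near the medians of all retained transcripts, 17.5 and 17.7. The luminal markers KRT19, EPCAM, ESR1, PGR, GATA3 and FOXA1 were between 10.9 and 608 FPKM in both libraries. Of these 6, 4 were lower past the limit in R5020, FOXA1 at 64.3 and 14.7 FPKM, GATA3 at 253 and 126, ESR1 at 17.2 and 10.9 and PGR at 23.7 and 15.3 FPKM, and the part of this in the values below was not tested. Markers of leukocytes and endothelium were all under 1. Of the 4 basal and 4 fibroblast markers only ACTA2, at 1.93 and 1.35 FPKM, and COL1A1, at 5.12 and 3.31 FPKM, reached 1. KRT8 and KRT18, keratins of every luminal cell, were listed at 0 in EtOH and at 285 and 174 FPKM in R5020. A value of 0 in these libraries can therefore be a failed estimate, and no fold change is given against one. The sum of a gene can still include a transcript listed at 0 in 1 library. In a whole culture, fewer cells with a transcript and less of it per cell cannot be told apart.

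Of the 88 genes, 75 were retained, against 11018 of all genes. R5020 was higher past 1.5-fold in 5 of them, the demethylase KDM4B, the methyltransferases SETD7 and SETD3, the remodeller CHD1L and the acetyltransferase KAT2B. It was lower in 3, the DNA-binding protein ARID5B, the deacetylase HDAC5 and the noncoding RNA KDM5B-AS1. The call of HDAC5 depends on a transcript listed at 0 in R5020. The other 67 lay between these limits, among them all retained SMARC subunits, DNA methylation enzymes, EZH methyltransferases and class I deacetylases. The 5 higher genes are 6.67% of the retained members, beside 7.67% of all retained genes, and the 3 lower ones are 4% beside 4.14%. Chromatin regulators thus passed the limit about as often as genes at large, and these shares are no result about the family.

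**Figure D1:**
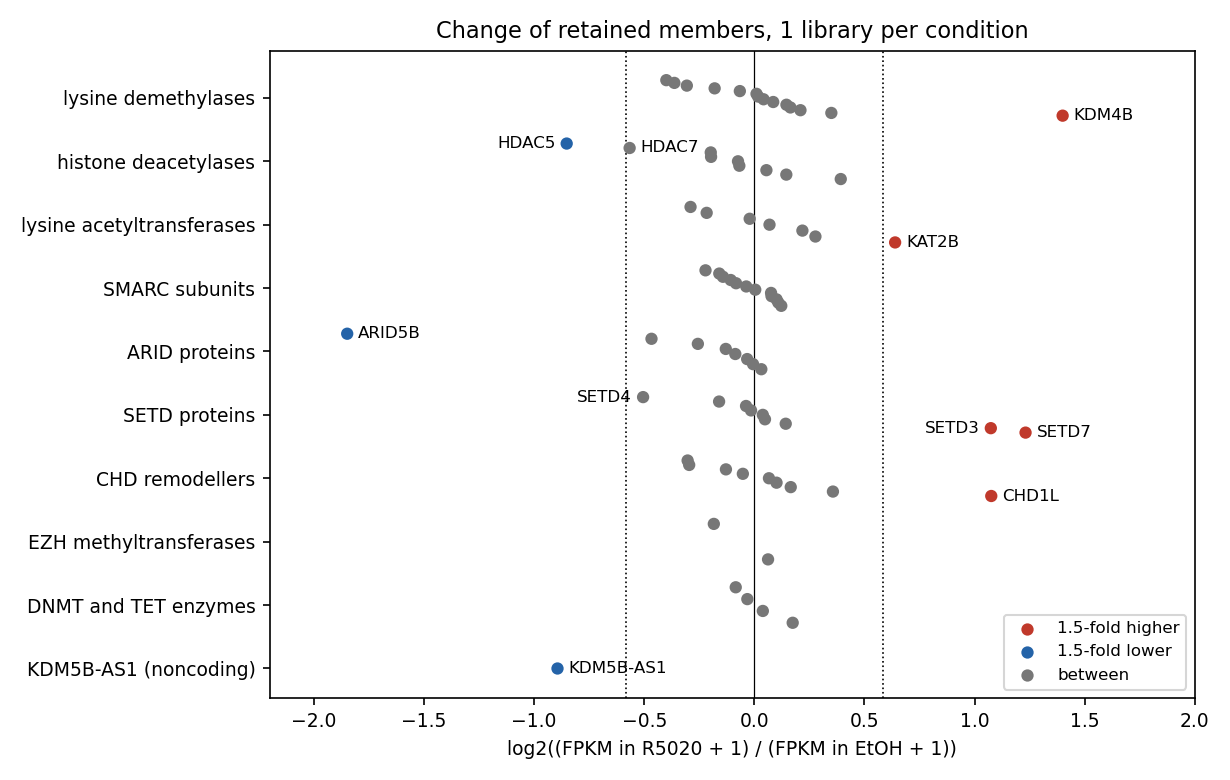
Change of each retained gene between the libraries, on the x axis as log2((FPKM in R5020 + 1) / (FPKM in EtOH + 1)), with the genes grouped by protein family on the y axis. Each point is 1 gene with 1 library per condition, the dotted lines mark 1.5-fold, and 5 genes lie to the right of them and 3 to the left.

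The median change of the 75 genes was -0.02, beside 0.01 over all genes, and 36 of them were above 0 and 39 below. The values between the lower and upper quartile ran from -0.17 to 0.10, and that of all genes from -0.17 to 0.19. Their spread had an SD of 0.43, against 0.66 over all genes. The latter takes in genes listed at 0 in 1 library, such as KRT8, so nothing is drawn from the difference. A change within 0.25 of 0 was found in 53 of the 75, or 70.7%, and in 62.9% of all genes. The family as a whole lay close to its vehicle level 3 h after the hormone, with a few genes far from it. All genes had a similar median and similar quartiles, so this is no trait of the family. KAT2B at 0.64, HDAC5 at -0.85 and KDM5B-AS1 at -0.90 were the genes just past the limit, and HDAC7 at -0.57, SETD4 at -0.51 and ARID3A at -0.47 those just short of it. Without the added 1 FPKM, 6 members (8%) were past 1.5-fold higher and 7 (9.33%) lower, beside 10.2% and 7.67% of all retained genes. The members that passed on that scale only were HDAC11 upwards and HDAC7, SETD4, ARID3A and KDM6B downwards, at log2 ratios of 0.65, -0.67, -0.60, -0.98 and -0.64. The sums of HDAC11 and SETD4 each include a transcript listed at 0 in 1 library. Without it their changes, on the scale with 1 FPKM added, were 0.25 and 0.13.

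KDM4B, which removes methyl groups from a histone H3 lysine of silent chromatin, had the largest difference upwards. Its single transcript was at 6.31 FPKM in EtOH and at 18.3 FPKM in R5020, a log2 change of 1.40, which ranked it 193 from the top of the 11018 retained genes. Among the members it moved from place 32 in EtOH to place 8 in R5020, and at the interval midpoints from 53 to 19. Among the other retained KDM3 and KDM4 demethylases, which act on the same residue, none passed the limit. KDM4A was at 5.72 and 4.09 FPKM, KDM4C at 1.66 and 1.73, KDM3A at 2.80 and 3.85 and KDM3B at 6.51 and 6.60. PHF8, a demethylase outside the naming rule, was at 4.95 and 7.87 FPKM, a log2 change of 0.575, just short of the limit.

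SETD7, a lysine methyltransferase of histone H3 and of several transcription factors, was at 10.0 FPKM in EtOH and 24.9 FPKM in R5020, a log2 change of 1.23. SETD3, a SET-domain protein best known as the histidine methyltransferase of actin, was at 11.9 and 26.2 FPKM, a log2 change of 1.07. With these values SETD3 and SETD7 were the third and the fourth most abundant members in R5020, behind SMARCE1 and SMARCD2, from places 14 and 17 in EtOH. At the midpoints of the deposited FPKM intervals, described below, SETD7 held place 2 and SETD3 place 4, from places 17 and 20. The remaining 7 retained SETD genes did not pass the limit. SETD8, which sets a methyl mark on histone H4, was the highest of them in EtOH, at 15.4 FPKM, and was at 17.0 FPKM in R5020. At the interval midpoints in EtOH, SETD5 was above it, at 17.9 against 13.9. SETD2, SETD5, SETD1A and SETD1B, which methylate histone H3 in transcribed or promoter chromatin or carry a SET domain, had changes from -0.04 to 0.05.

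CHD1L, a remodeller that is switched on by poly(ADP-ribose) at damaged DNA, was at 3.97 FPKM in EtOH and 9.48 FPKM in R5020, a log2 change of 1.08. Its rank among the members went from 54 to 21. The other retained CHD remodellers ran from -0.30 in CHD4 and CHD3 to 0.36 in CHD1. CHD3 and CHD4, the ATPases of the NuRD complex, were at 12.1 and 9.48 FPKM in EtOH and at 9.69 and 7.49 FPKM in R5020. KAT2B, the acetyltransferase also known as PCAF, was the smallest of the higher genes, at 2.58 and 4.58 FPKM, a log2 change of 0.64. Its paralog KAT2A was at 3.71 and 3.64 FPKM.

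Among the lower genes, ARID5B, a DNA-binding protein that recruits a histone demethylase, stood far from the rest. It was at 8.14 FPKM in EtOH and 1.54 FPKM in R5020, a log2 change of -1.85, and its rank among the members went from 25 to 71. It ranked 69 from the bottom of the 11018 retained genes. The other 7 retained ARID genes ran from -0.47 in ARID3A, at 1.28 and 0.65 FPKM, to 0.03 in ARID1A, at 3.98 and 4.09 FPKM. Of these 8 genes 7 were below 0 and 1 was above it, beside 5411 of all 11018 retained genes below 0. ARID3B at -0.01, ARID4A at -0.03 and ARID4B at -0.09 were among the 7. The sum of ARID4A includes NM_023001, at 0.66 FPKM in EtOH and listed at 0 in R5020, while its main transcript NM_002892 was at 0.14. That of ARID1A includes NM_139135, at 0.96 FPKM in EtOH and listed at 0 in R5020, while NM_006015 was at 0.34. The count of signs therefore depends in part on values of 0.

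HDAC5 belongs to the class IIa deacetylases, which shuttle between nucleus and cytoplasm and repress mainly through partner proteins. It was at 4.38 FPKM in EtOH and 1.98 FPKM in R5020, a log2 change of -0.85 that rests on 1 transcript listed at 0 in R5020 and came to -0.10 without it. HDAC7, the other retained gene of the class, was at 7.20 and 4.54 FPKM, a log2 change of -0.57 that did not pass the limit. HDAC4 and HDAC9 of the same class were not retained. The class I enzymes HDAC1, HDAC2, HDAC3 and HDAC8 had changes from -0.07 to 0.15, with HDAC1 the highest at 14.2 and 13.5 FPKM. HDAC6, HDAC10 and HDAC11 were at -0.20, -0.20 and 0.39.

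KDM5B-AS1 is a noncoding RNA that starts near the promoter of KDM5B, on the other strand. It was at 5.94 FPKM in EtOH and 2.73 FPKM in R5020, a log2 change of -0.90. KDM5B, a demethylase of active histone H3 marks and the most abundant coding transcript among the KDM genes, was at 20.4 and 19.5 FPKM, a log2 change of -0.07. The extents of the pair are 2.52 kb apart in the annotation and do not overlap, so the RNA could be read apart from the demethylase.

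**Figure D2:**
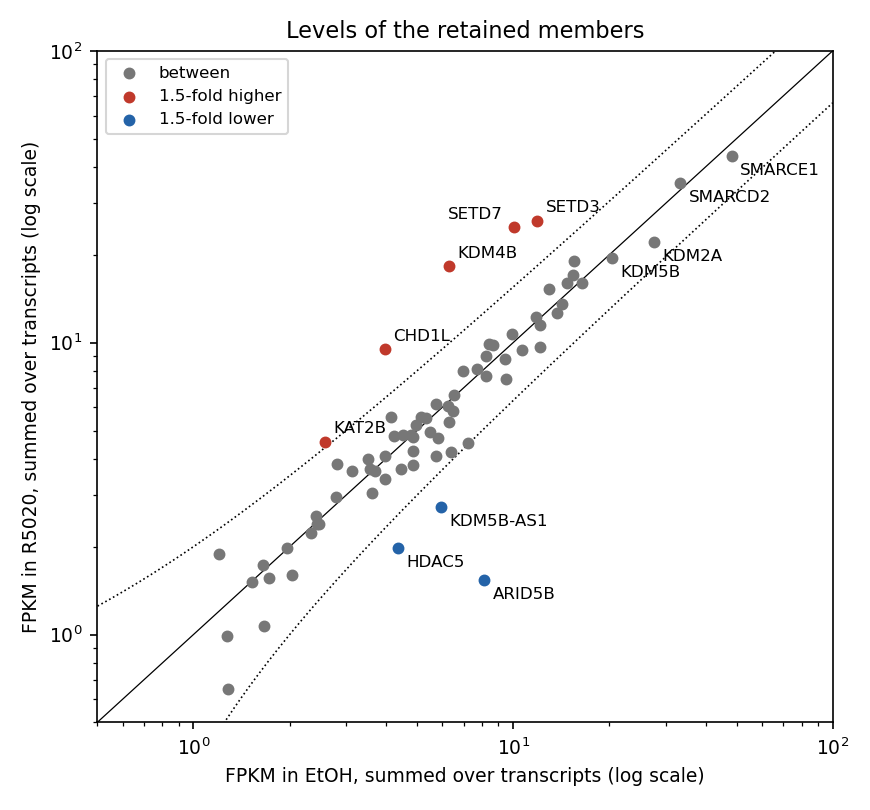
Summed FPKM of the 75 retained genes in EtOH (x axis) and in R5020 (y axis), both on log scales, 1 point per gene and 1 library per condition. The solid line marks equal levels and the dotted lines 1.5-fold after adding 1 to each value, and the points run along the solid line from SMARCE1 at 48.3 and 43.7 FPKM down to genes near 1, apart from the 8 that are coloured.

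The most abundant members in EtOH were SMARCE1 at 48.3 FPKM, SMARCD2 at 33.4, KDM2A at 27.5, KDM5B at 20.4 and SMARCC2 at 16.4 FPKM. At the interval midpoints in EtOH, HDAC1 held place 5, at 21.4, and SMARCC2 place 8, at 16.6. SMARCE1, SMARCD2 and SMARCC2 are subunits of the SWI/SNF (BAF) remodellers. They were at 43.7, 35.2 and 16.0 FPKM in R5020. All 12 retained SMARC genes lay between -0.22 in SMARCA2 and 0.12 in SMARCA5, so each was within 0.25 of 0. The ATPases SMARCA4 and SMARCA2 were at 10.7 and 4.47 FPKM in EtOH and at 9.47 and 3.69 FPKM in R5020. Counted as the BAF complex with its ARID subunits, 11 retained genes gave 0 higher and 0 lower, with a median of -0.11. Of these 8 were below 0, and 10 of the 11 lay within 0.25 of it.

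KDM2A, which demethylates histone H3 at CpG islands, was at 27.5 and 22.1 FPKM, a log2 change of -0.31. Most of that sum was the noncoding transcript NR_027473, at 18.7 and 14.6 FPKM, and the coding NM_012308 was at 8.88 and 7.49 FPKM. KAT7, the catalytic subunit of an acetyltransferase of histones H3 and H4, was the highest acetyltransferase at 15.5 and 19.0 FPKM, a log2 change of 0.28. This sum includes NM_001199156, listed at 0 in EtOH and at 2.92 FPKM in R5020, while its main transcript NM_007067 was at 11.7 FPKM in both. KAT6A was at 12.99 and 15.3 FPKM, and the remaining acetyltransferases KAT5, KAT6B and KAT8 had changes of -0.29, -0.22 and 0.07. KDM1A, the flavin-dependent demethylase that several nuclear receptors use, was at 8.40 and 9.87 FPKM, a log2 change of 0.21. EZH2, the methyltransferase of the Polycomb complex, was at 4.97 and 5.23 FPKM, and EZH1 at 3.61 and 3.06 FPKM. DNMT1, the maintenance DNA methyltransferase, was at 6.99 and 8.02 FPKM, and TET2, TET3 and DNMT3B lay between -0.08 and 0.04.

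The 13 genes that were not retained were ARID3C, ARID5A, CHD5, DNMT3A, DNMT3L, HDAC4, HDAC9, KDM4D, KDM4DL, KDM5D, SETD6, SMARCD3 and TET1. Of these 9 had a sum above 0 and under 1, with DNMT3A at 0.82 and 0.43 FPKM and TET1 at 0.77 and 0.35 FPKM the highest in EtOH. The other 4 were listed at 0. Several of them are tissue-restricted forms, such as the neuronal remodeller CHD5 at 0.53 and 0.76 FPKM.

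Other chromatin regulators outside the naming rule gave a like picture. Of 109 listed genes, among them EP300, CREBBP, the MLL methyltransferases, the sirtuins, the bromodomain proteins and the Polycomb subunits, 104 were found and 99 retained. Their median change was 0.03, with 6 higher (6.06%) and 3 lower (3.03%). RBBP7, a histone-binding subunit of NuRD, Sin3 and Polycomb complexes, had the largest difference upwards, at 46.5 FPKM in EtOH and 89.0 FPKM in R5020. JARID2 was at 3.38 and 6.35 FPKM, SAP30 at 2.53 and 4.98, PHF10 at 4.17 and 8.24, MBD2 at 6.83 and 11.3 and UHRF1 at 6.84 and 10.9 FPKM. Of the lower genes, SUV420H2 was at 1.97 and 0.71 FPKM, and SIRT3 was at 1.63 FPKM in EtOH and listed at 0 in R5020. The coactivator acetyltransferases EP300 and CREBBP were at 8.40 and 8.50 FPKM and at 9.16 and 9.07 FPKM.

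Per-transcript values were read next, since the sum over a gene can hide transcripts that move apart. Of the 187 transcripts 102 were retained, with 12 higher and 11 lower in R5020. Over all 13625 retained transcripts the shares were 11.3% higher and 8.34% lower. The calls split almost evenly, with 11 in genes whose sum had passed the limit and 12 in 8 genes whose sum had not. A value of 0 in 1 library stood behind 8 of the 23 calls, and behind 7 of the 12.

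**Figure D3:**
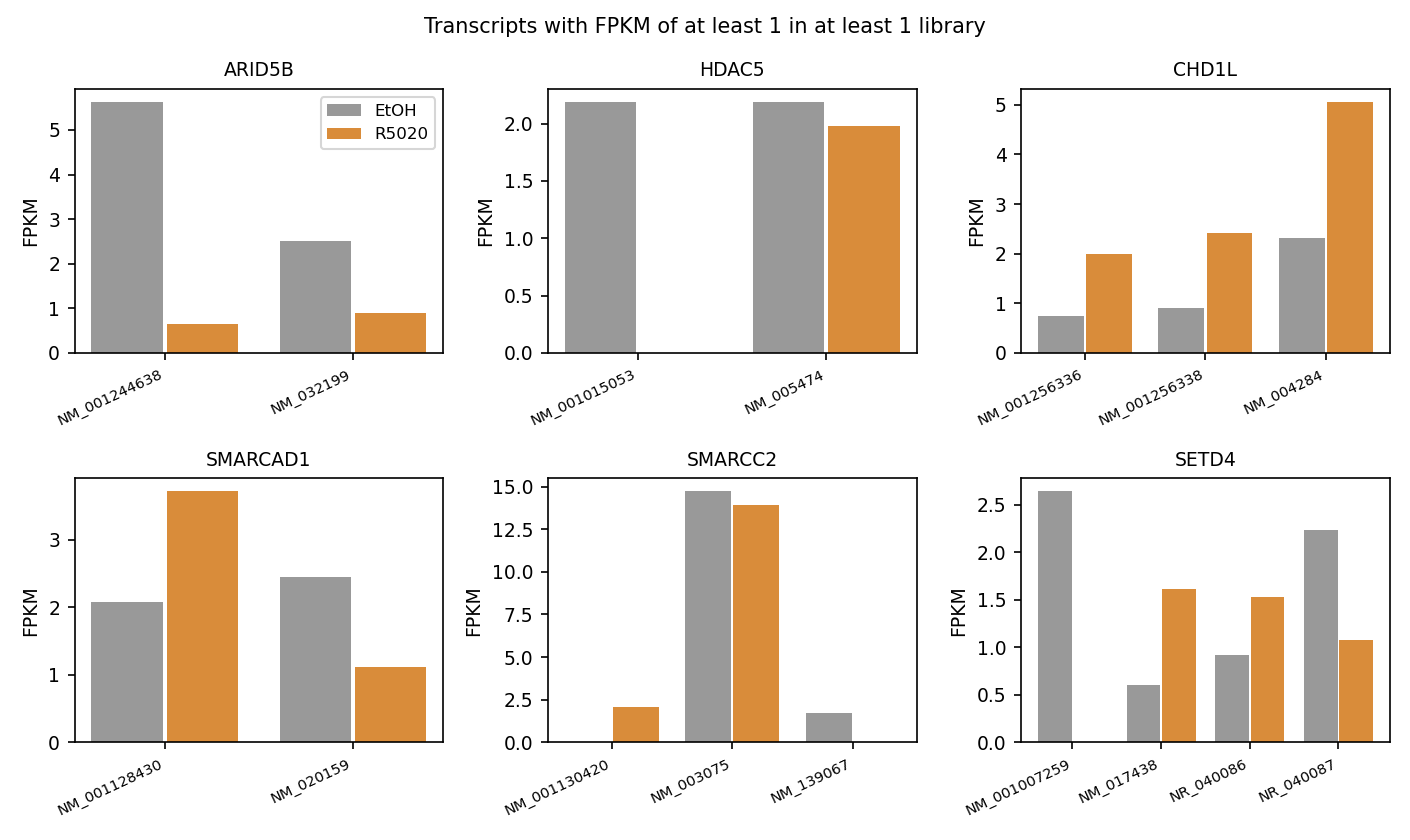
FPKM (y axis, from 0) of the transcripts of 6 genes that reached 1 in at least 1 library, with EtOH in grey and R5020 in orange and 1 library per bar. Both ARID5B transcripts were lower and all 3 CHD1L transcripts higher in R5020, whereas 1 of the 2 HDAC5 transcripts had no bar in R5020.

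ARID5B has a long transcript, NM_032199, and a shorter one, NM_001244638, whose starts lie 148 kb apart. The short form was at 5.63 FPKM in EtOH and 0.65 FPKM in R5020, a log2 change of -2.01. The long form was at 2.50 and 0.89 FPKM, a log2 change of -0.89. Both starts were lower, and the downstream start held 69.3% of the sum in EtOH and 42.4% in R5020. These calls rest on fold alone. The study used Cuffdiff with a p-value and limited its account of variants to the transcripts with the lowest p-values. There it reported only 1 regulated variant for a gene it names ARID5. The thresholds differ, so that count cannot be set against the calls here. In CHD1L the 3 retained transcripts shared 1 start and were all higher. NM_004284 was at 2.31 and 5.07 FPKM, NM_001256338 at 0.90 and 2.42 and NM_001256336 at 0.75 and 1.99 FPKM.

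The call of HDAC5 rested on 1 transcript. NM_001015053 was at 2.19 FPKM in EtOH and listed at 0 in R5020, while NM_005474, with the same start and a length of 5324 nt against 5327 nt, was at 2.19 and 1.98 FPKM, a log2 change of -0.10. Without the transcript listed at 0, HDAC5 did not pass the limit. Whether reads moved between these near-identical models or were lost was not tested.

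SETD4, SMARCAD1 and SMARCC2 each had a transcript higher and another lower, with a sum between the limits. SMARCAD1, an ATP-dependent remodeller that acts at DNA breaks and behind the replication fork, used starts 237 bases apart. Its transcript NM_001128430 was at 2.08 FPKM in EtOH and 3.72 FPKM in R5020, a log2 change of 0.62, and NM_020159 was at 2.45 and 1.12 FPKM, a log2 change of -0.71. The share of the upstream start was 45.9% in EtOH and 76.9% in R5020, with a sum of 4.53 and 4.84 FPKM. It was the only one of the 3 in which none of the calls involved a value of 0.

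In SMARCC2 the main transcript NM_003075 was at 14.8 and 13.9 FPKM, while NM_001130420 was listed at 0 in EtOH and at 2.05 FPKM in R5020 and NM_139067 at 1.69 FPKM in EtOH and 0 in R5020. SETD4 had 4 retained transcripts. NM_001007259 was at 2.65 FPKM in EtOH and listed at 0 in R5020, NR_040087 was at 2.24 and 1.07 FPKM, NM_017438 at 0.60 and 1.62 and NR_040086 at 0.92 and 1.53 FPKM. Minor transcripts listed at 0 in 1 library also gave the calls in KAT7, KDM1A, DNMT1 and SMARCA4, whose dominant transcripts did not pass the limit. In DNMT3B, NM_175849 was at 1.19 and 0.46 FPKM, a log2 change of -0.59.

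The deposited Cufflinks interval of a transcript did not always hold its own FPKM. The FPKM lay outside it in 29 of the 95 member transcripts at 1 or more in EtOH and in 28 of the 93 in R5020, beside 35.4% of all transcripts in either library. For KDM4B the interval was 3.85 to 4.51 in EtOH and 11.2 to 12.5 in R5020, below the listed 6.31 and 18.3 FPKM. For SMARCE1 it was 79.3 to 84.4 in EtOH, above the listed 48.3 FPKM. The intervals are therefore not used as errors. Taken at the interval midpoints, 5 genes were again higher and 3 lower, and KDM4B had a log2 change of 1.31. The order of levels between genes thus depended more on this choice than the differences between libraries did. Both values come from the same libraries, so this gives no certainty to those differences.

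The PR ChIP-seq gave 11181 binding sites, each with a MACS score of 50 or more (the −log10 of the p-value times 10). Of these 127 lay within 50 kb of one of the 88 genes. A site was found within 50 kb of 46 of the 75 retained genes, or 61.3% (Wilson 95% interval 50.02 to 71.54, counting error only), beside 52.7% of all retained genes. A site inside the gene was found in 26, or 34.7% (24.9 to 45.9), beside 22.5%. The median extent of these genes was 61.7 kb and that of all genes 26.8 kb, so more sequence was searched for each. Per megabase of searched window the members had 8.40 sites and all genes 9.11.

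**Figure D4:**
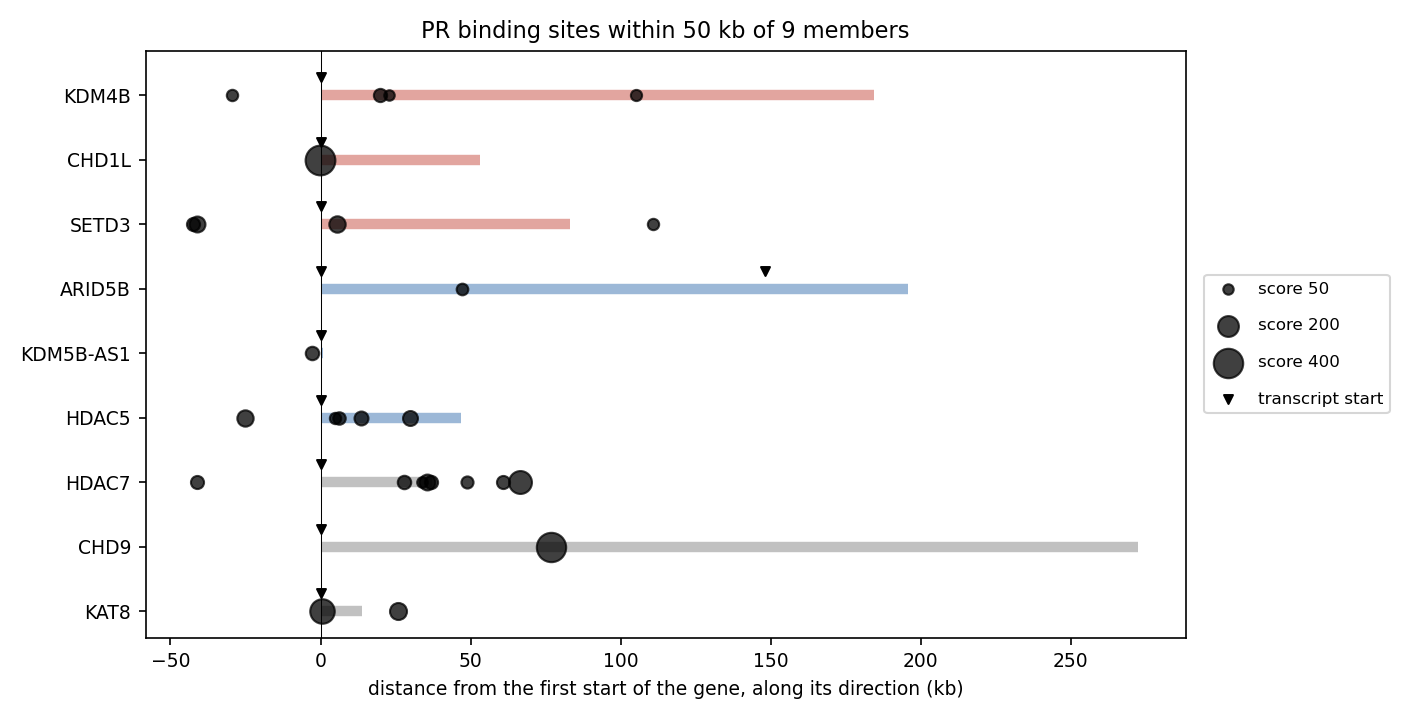
PR binding sites within 50 kb of 9 genes, placed on the x axis by the distance in kb of their midpoint from the first start of the gene in its own direction. Bars are gene bodies (red higher, blue lower and grey neither in R5020), circles are sites with an area proportional to the score and triangles are transcript starts, and the site of CHD1L, with a score of 409, sits on its start while that of CHD9, with a score of 398, lies 76.7 kb into a gene that did not pass the limit.

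Among the 46 retained genes with a site, 3 were higher and 3 lower, 6.52% each, beside 8.94% and 4.79% of all genes with a site. Among the 29 without one, 2 were higher and 0 lower, beside 6.25% and 3.41%. SETD7 and KAT2B were the higher genes without a site, and the nearest sites lay 610 kb and 1267 kb away. RAB33B, 30.1 kb from SETD7, was also higher, at 2.21 FPKM in EtOH and 3.86 FPKM in R5020. Of the 8 genes past the limit 6 thus had a site within 50 kb, beside 46 of the 75 retained members. Over all genes, 519 of the 845 higher and 278 of the 456 lower ones had a site. The 6 include HDAC5, whose call rests on a transcript listed at 0, and their count is no result about the members. The median score of the sites near members was 74.0, and that of all sites 74.5.

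The strongest site near any member covered the start of CHD1L, at chr1:146713660-146714843 (hg19), with a score of 409.2 and rank 76 among all sites. Its midpoint was 40 bases upstream of the start. The sequence around it is shown because it is the single site of a higher gene and a promoter, together with a promoter site of comparable rank at KAT8, the acetyltransferase of a histone H4 lysine, whose level was 2.78 and 2.97 FPKM. The KAT8 site had a score of 277 and its midpoint lay 367 bases into the gene. All sequences are 200 bases of the plus strand of GRCh37 (the assembly of hg19), centred on the midpoint of the site or, where it held one, on the palindromic letters ACANNNTGT of the hormone response element, which are printed in capitals.
CHD1L chr1:146714152-146714351: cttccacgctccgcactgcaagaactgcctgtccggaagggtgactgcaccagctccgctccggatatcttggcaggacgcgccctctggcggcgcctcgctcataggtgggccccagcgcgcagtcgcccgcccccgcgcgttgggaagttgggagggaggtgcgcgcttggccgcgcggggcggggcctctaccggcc
KAT8 chr16:31129186-31129385: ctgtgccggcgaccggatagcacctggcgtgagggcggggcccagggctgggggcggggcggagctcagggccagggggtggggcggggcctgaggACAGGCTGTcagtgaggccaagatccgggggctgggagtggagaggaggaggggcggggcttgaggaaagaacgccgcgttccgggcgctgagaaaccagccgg

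The CHD1L window is rich in G and C and held no match, and that of KAT8 held 1 match, 301 bases downstream of the start. FMO5, whose annotated intron also contains the CHD1L site, was at 3.17 FPKM in EtOH and 4.66 FPKM in R5020 and did not pass the limit.

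Sites inside the other genes past the limit were weaker and lay in introns and exons. KDM4B had 3 inside, 19.9, 22.9 and 105 kb from its start with scores of 81.0, 50.8 and 57.7, and 1 more 29.4 kb upstream in an intron of UHRF1, itself higher in R5020. SETD3 had an intronic site 5.52 kb from its start with a score of 124, and another, with a score of 59.5, 27.3 kb beyond its end. The other 2 lay upstream in introns of CCNK and CCDC85C. CCNK, whose start is the nearest to both, was at 29.3 FPKM in EtOH and 33.8 FPKM in R5020 and did not pass the limit. CCDC85C was at 4.84 and 11.0 FPKM, past the limit. ARID5B had a single intronic site, with a score of 62.7, below the median of all sites. It lay between the starts of the gene, 47.2 kb from the upstream one. The downstream start, which held 69.3% of the sum in EtOH, was farther from it. The sequences below are those of the strongest site inside KDM4B and SETD3, shown because both genes were higher.
KDM4B chr19:4988949-4989148: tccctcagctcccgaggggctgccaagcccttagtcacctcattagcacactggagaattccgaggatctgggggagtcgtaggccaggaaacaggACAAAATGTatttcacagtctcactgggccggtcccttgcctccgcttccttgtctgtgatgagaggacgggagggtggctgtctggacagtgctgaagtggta
SETD3 chr14:99941608-99941807: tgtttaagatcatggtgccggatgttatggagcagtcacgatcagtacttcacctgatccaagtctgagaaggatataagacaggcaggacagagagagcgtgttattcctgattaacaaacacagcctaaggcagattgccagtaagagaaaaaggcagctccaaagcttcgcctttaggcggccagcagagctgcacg

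The KDM4B window held the palindrome and that of SETD3 did not. Among the lower genes HDAC5 had 4 sites inside, with scores from 59.2 to 103, and 1 more 25.3 kb upstream with a score of 123. The strongest of those inside lay in an exon, 30.0 kb from the start. KDM5B-AS1 and KDM5B shared 1 site with a score of 83.8, 436 bases into KDM5B and 2.96 kb upstream of the start of the noncoding RNA. The window of this site is shown because it is the single site near the lower noncoding RNA.
KDM5B chr1:202777014-202777213: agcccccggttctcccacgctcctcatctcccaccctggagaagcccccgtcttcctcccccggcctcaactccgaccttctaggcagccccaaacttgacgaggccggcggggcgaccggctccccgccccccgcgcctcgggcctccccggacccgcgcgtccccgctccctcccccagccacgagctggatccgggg

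The window held no match. HDAC7, just short of the limit, had more sites than any other member, 8 within 50 kb and 4 inside. The strongest of the 8 had a score of 242 and lay beyond the end of the gene, 518 bases from the start of SLC48A1, and the strongest inside a score of 116.

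Strong sites were also found in genes whose level did not pass the limit. CHD9, a remodeller named for its chromodomain, had a site with a score of 398 and rank 82 among all sites in an intron 76.7 kb from its start, and was at 2.34 and 2.22 FPKM. SMARCD2 had an intronic site 4.18 kb from its start with a score of 162 and was at 33.4 and 35.2 FPKM. The sequence of the SMARCD2 site is given for comparison with those of the genes past the limit.
SMARCD2 chr17:61915986-61916185: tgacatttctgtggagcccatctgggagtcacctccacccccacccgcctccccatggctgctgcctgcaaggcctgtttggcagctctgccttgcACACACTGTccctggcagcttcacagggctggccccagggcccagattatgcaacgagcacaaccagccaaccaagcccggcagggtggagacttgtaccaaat

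The SMARCD2 window held the palindrome. Over whole sites, the 9 letters on either strand were found in 14 of the 127 sites near members, or 11.0%, and in 11.8% of windows of the same length 5 kb to either side. Over the 11178 sites that lay on the assembled chromosomes the shares were 11.6% and 11.2%. Among all sites with a score of at least 100 they were 19.6% and 12.9%, and among the 21 of these near members both were 14.3%. The forkhead letters TGTTTAC, on either strand, were in 1 of the 127 sites, or 0.79%, and in 2.36% of the windows beside them. Over all sites these shares were 4.07% and 5.18%, so the letters were no more frequent inside sites than beside them. A match is only a run of letters, and a window without one may still bind the receptor.

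A site midpoint within 1 kb of a start was found in 9 of the 75 retained genes, or 12%, beside 9.69% of 10670 genes with a known strand. These 9 were CHD1L, HDAC3, KAT2A, KAT5, KAT6B, KAT8, KDM4C, KDM5B and SETD5, and CHD1L alone was past the limit. Of the 7 acetyltransferases 4 were among them, a count noticed after the values were seen. KAT5, the catalytic subunit of the TIP60 complex, had a site 119 bases into the gene with a score of 79.2 and was at 4.88 and 3.81 FPKM. KAT2A had 3 sites inside, the first 321 bases from its start, and KAT6B 1 at 483 bases, at 2.03 and 1.61 FPKM.

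The remaining retained genes with a site inside were ARID1A, ARID3B, CHD3, CHD6, CHD7, DNMT3B, EZH1, KDM2A, KDM2B, KDM4A, SETD1A and SETD1B, none of them past the limit. CHD7, the remodeller of CHARGE syndrome, had 3 intronic sites with scores from 60.7 to 156 and was at 3.13 and 3.64 FPKM. CHD6 had 1 inside with a score of 71.1 and another 2.48 kb beyond its end with a score of 200, and was at 5.13 and 5.58 FPKM. EZH1 had an intronic site with a score of 124, and DNMT3B an exonic one with a score of 107. ARID1A, a DNA-binding subunit of BAF, had 2 sites near its end with scores of 85.3 and 53.8. CHD5 and HDAC4, which were not retained, each had 1 site inside, with scores of 97.0 and 90.5. SMARCE1, the most abundant member, had no site inside and 2 within 50 kb, with scores of 63.0 and 50.5.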

How the data were processed

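T47D cells were profiled by RNA-seq (10 nM R5020 or EtOH, 3 h) and PR ChIP-seq (10 nM R5020, 1 h), 1 library each. Groups followed the sample labels. Input DNA, the authors' ChIP-seq control, was not analysed here.

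RNA-seq reads were trimmed by the authors where needed and mapped with TopHat on hg19. Reads that mapped to more than 1 place were dropped. The authors deposited, per RefSeq transcript, the FPKM and its interval from Cufflinks. FPKM is scaled by length and library size, so no count test was used. The deposited coverage, a signal per base, served to give depth: times transcript length it came to 1.76 Gb in EtOH and 1.81 Gb in R5020. The library strand setting is not given in the sources used here. For ChIP-seq the authors used Bowtie 1.1.2 (submitters' processing notes) and MACS against input, and deposited site positions with a score, 10 times the −log10 of the p-value.

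The FPKM minimum of 1 in at least 1 condition and the 1.5-fold limit follow the study's methods, whose Cuffdiff fold and p-value were not used. The sum of FPKM per symbol and the pseudocount of 1 were choices made here. Sites were tied to genes by their nearest edge. Starts, strand and annotation came from the deposited transcripts and GENCODE 44 on GRCh37, in which 3 members had another symbol. Sequences came from that assembly. Named genes were those past or nearest to the limit, those with a site inside, with a transcript past the limit, and the most abundant. Sequences were of the strongest sites inside the genes. A gene of the wider list and some site sequences are not reported here. Members and lists were chosen with earlier results of these data known. Alternatives were other pseudocounts, filters, scaling, folds, distances and scores. The scripts were tested on simulated data, which gives no error rate for these libraries. Python 3.11.15, pandas 2.3.3, numpy 2.4.6, scipy 1.17.1, pysam 0.24.0 and matplotlib 3.10.9 were used.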

Additional observations from a re-analysis of the deposited data

How the results depend on the processing

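No paired analysis was possible because each condition had 1 library. For the same reason no replicate could be left out, and all differences compare these libraries only. Wilson intervals cover counting error and treat genes as independent. With a pseudocount of 0.1, 7 members were lower, with HDAC7 at -0.65, SETD4 at -0.59, ARID3A at -0.88 and KDM6B at -0.59 past the limit, and HDAC11 was higher at 0.61. With no pseudocount 7 were lower, and with a 2-fold threshold 1 was lower. HDAC5 came to -0.10 and lost its call with its highest transcript alone, or with transcripts above 0 in both conditions only, an alternative chosen after seeing the data, as were the interval midpoint and no pseudocount. SETD4 was at -0.64 with its highest transcript and at 0.13 with transcripts above 0 in both. HDAC11 was at 0.25 in either case. Transcripts higher and lower numbered 6 and 3 with an FPKM of at least 1 in both conditions, 4 and 2 with at least 5 in 1 condition, and 6 and 7 at 2-fold. The share of members with a site was 34.7% inside genes, 48% within 10 kb, 81.3% within 100 kb, 45.3% with scores at or above the median and 20% with scores of at least 100. For all genes these distances gave 22.5%, 33.0% and 64.3%. Other counts were within 1.5 times those reported. The median change lay between -0.03 and 0.01 over genes and between -0.02 and 0.02 over transcripts, so its sign depends on the choice. KDM4B, SETD7, CHD1L, SETD3, KAT2B, ARID5B and KDM5B-AS1 kept direction and side of the 1.5-fold limit under each alternative run on them, with KAT2B nearest to the limit at 0.63.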
